A study of Mus musculus with 8 samples.

Results

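The 10 genes studied here mark the zones of the liver lobule. They were followed in livers of wild-type mice and of mice with a homozygous mutation of the RNA-modifying enzyme pseudouridine synthase 1 (Pus1). The members were taken by symbol. They are 6 pericentral genes (Glul, Oat, Cyp2e1, Cyp1a2, Slc1a2 and Axin2) and 4 periportal genes (Cyp2f2, Hal, Gls2 and Cdh1), out of 20972 genes with a symbol on the array. The array holds 14 probes for these 10 genes among 55681 probes in all. RNA came from frozen livers of 4 mice homozygous for the Pus1 mutation and 4 wild-type mice, each group with 2 females and 2 males, aged 14 to 16 weeks, on C57BL/6J after 5 generations of backcrossing. The labels give no treatment and do not say how the allele was made or in which cells it is altered. Each of 4 2-colour arrays held 1 mutant and 1 wild-type liver of 1 sex, arrays 1 and 2 females and arrays 3 and 4 males, and a mouse carries the number of its array. The dye of the mutant alternated between arrays. The study calls the 4 mice of a genotype biological replicates.

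Blood enters a liver lobule at the portal vein and leaves at the central vein, and hepatocytes along this path carry out different work. Pericentral hepatocytes receive Wnt signals from the endothelium of the central vein, and Wnt signalling through beta-catenin maintains many of their genes. Cells around the portal vein take up glutamine and amino acids and make urea, while a thin ring of cells around the central vein captures the ammonia that is left as glutamine. A bulk sample of liver mixes all zones, so a change in the number of cells of a zone and a change in the RNA per cell cannot be told apart.

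Start-site sequences are shown for 3 members, since pericentral genes are known as targets of Wnt signalling and the short motif of its factors TCF and LEF can be looked for there. The motif was searched as CTTTGA or CTTTGT on both strands, in the 250 bases before the start site, in RefSeq sequences of the build GRCm38.p6. Of the 10 members, 8 had an entry (not Gls2 or Cdh1) and 4 of these held the motif, namely Cyp2e1, Cyp1a2, Slc1a2 and the periportal gene Hal. The pericentral genes Glul, Oat and Axin2 and the periportal gene Cyp2f2 had no match. The 3 sequences shown are from members with a match. The motif stands in 27.6% of all 32851 sequences of this length, and a match is a run of letters, not a shown binding site. The sequences below are from chr9:57683656-57683905 (minus strand), chr7:140763569-140763818 (plus strand) and chr10:93488518-93488767 (plus strand), 5′ to 3′ along the gene, with the motif in capitals.
Cyp1a2: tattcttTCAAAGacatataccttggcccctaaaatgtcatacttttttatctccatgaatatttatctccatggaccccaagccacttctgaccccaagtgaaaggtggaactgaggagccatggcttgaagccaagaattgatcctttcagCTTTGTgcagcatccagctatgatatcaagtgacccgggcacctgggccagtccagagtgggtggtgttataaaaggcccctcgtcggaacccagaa
Cyp2e1: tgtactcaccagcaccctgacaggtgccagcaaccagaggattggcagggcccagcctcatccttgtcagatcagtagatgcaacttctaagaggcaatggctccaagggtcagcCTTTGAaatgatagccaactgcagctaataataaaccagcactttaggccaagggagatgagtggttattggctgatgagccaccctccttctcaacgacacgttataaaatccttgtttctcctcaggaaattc
Hal: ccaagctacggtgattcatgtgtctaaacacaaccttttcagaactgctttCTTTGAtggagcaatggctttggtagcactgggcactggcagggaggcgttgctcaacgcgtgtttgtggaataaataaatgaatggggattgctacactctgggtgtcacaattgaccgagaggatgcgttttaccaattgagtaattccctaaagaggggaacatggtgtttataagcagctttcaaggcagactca
Cyp1a2 has 2 matches, which begin 243 and 97 bases before the start, Cyp2e1 has 1 at 135 bases and Hal has 1 at 199 bases.

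Of 10 members, 9 were bright enough to test, and none passed the test for a difference between genotypes. A gene was tested if a probe was well above background in at least 4 of 8 livers, which left 17531 genes or unnamed transcripts, and the brightest probe stood for the gene. Levels are log2 intensities and ratios are log2 of mutant over wild type. The limma fit of the 4 ratios, with a term for dye and Benjamini-Hochberg adjustment, called 0 of 9 members, and it called 0 of all 17531 genes (0%). At an unadjusted p under 0.05, 1 of 9 members was higher in mutants, where 4.73% of all genes were, and 0 of 9 were lower, where 4.18% of all genes were (8.91% in either direction). A ratio above 0 on all 4 arrays was seen in 1 of 9 members against 8.97% of all genes, and a ratio below 0 on all 4 arrays in 0 of 9 against 8.7%. Over all genes the median ratio was −0.01. The genotype fit was also run with single arrays left out and the dye term kept. In each such run, 1 array was alone in its dye orientation and weighed as much as the remaining arrays together. Leaving out array 4 raised the calls over all genes to 1522, and Oat was the 1 member that then passed. Across the 8 livers between 36.8% and 44% of spots were well above background, 42.2% to 44% in females and 36.8% to 37.9% in males. The mutated gene Pus1 read 8.66 ± 0.24 (SD, n = 4) in wild types and 6.63 ± 0.22 (SD, n = 4) in mutants (limma adjusted p = 0.0564). Its probe stood well above background in each of the 4 wild types but in 0 of 4 mutants. The labels do not say which stretch of the gene was altered. The tissue label was checked with 9 tested hepatocyte markers, among them Ttr and Hnf4a, whose mean level lay between 15.66 and 15.91 in every liver.

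Glutamine synthetase (Glul), which joins ammonia to glutamate in the ring of cells at the central vein, had levels within 14.10 to 14.51 in the 8 livers. It read 14.20 and 14.51 in wild-type females, 14.40 and 14.32 in mutant females, 14.28 and 14.10 in wild-type males and 14.17 and 14.30 in mutant males. All 4 mutants lay within the wild-type range. The fitted ratio was 0.03 ± 0.12 (SE), with a 95% interval of −0.28 to 0.33 (limma adjusted p = 0.95).

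Ornithine aminotransferase (Oat), which turns ornithine into a precursor of glutamate and proline in the same cells, had the largest ratio of the members. Wild-type females read 13.21 and 13.43, mutant females 13.87 and 14.51, wild-type males 12.31 and 12.53 and mutant males 13.11 and 12.25. Both mutant females lay above both wild-type females, whereas 1 mutant male lay above and 1 below both wild-type males. The arrays gave 0.66, 1.09, 0.80 and −0.28, and the fitted ratio was 0.57 ± 0.23 (SE), a 1.48-fold higher level, which did not pass (95% interval −0.0025 to 1.14, limma adjusted p = 0.541). Without array 2 the ratio was 0.23, with array 4 alone in its dye orientation. Without array 4, whose ratio was negative, it was 0.91 and passed (limma adjusted p = 0.0144), in a fit that called 1522 genes in all and holds 1 array alone in its dye orientation.

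The glutamate transporter gene Slc1a2 completes the ammonia-capturing group, as it brings glutamate into pericentral cells. Its brightest probe, on transcript NM_011393, read 11.49 and 11.95 in wild-type females, 11.60 and 11.60 in mutant females, 11.51 and 11.48 in wild-type males and 11.75 and 11.19 in mutant males. Wild-type female 2 was the highest liver. The fitted ratio was −0.07 ± 0.10 (SE, limma adjusted p = 0.802). The array ratios were 0.11, −0.34, 0.24 and −0.29, so their sign followed the dye orientation, and the dye term was 0.25 (Cy5 over Cy3). Both probes on transcript NM_001077514 followed the same order of signs, with mean ratios of −0.21 ± 0.57 (SD, n = 4) and −0.14 ± 0.30 (SD, n = 4), and were dimmer, 1 of them well above background in 6 of 8 livers.

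Cyp1a2, a cytochrome that oxidises caffeine and aromatic amines, was the one member with a ratio above 0 on all 4 arrays. Its levels were 11.96 and 11.82 in wild-type females, 12.53 and 12.39 in mutant females, 12.27 and 11.47 in wild-type males and 12.30 and 11.72 in mutant males. Each mutant read above its array partner, but the 2 groups of 4 overlap. The ratios were 0.57, 0.57, 0.04 and 0.25, with a fit of 0.36 ± 0.14 (SE), a 1.28-fold higher level that did not pass (95% interval 0.02 to 0.70, limma adjusted p = 0.541). It was 0.22 without array 1.

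Cyp2e1, a cytochrome that oxidises ethanol and paracetamol, was measured by 2 probes that part on array 2. The brighter probe read 17.55 and 18.11 in wild-type females, 17.80 and 17.41 in mutant females, 17.33 and 17.28 in wild-type males and 17.23 and 17.19 in mutant males. Wild-type female 2 again read highest. This probe gave ratios of 0.25, −0.70, −0.10 and −0.10 and a fit of −0.16 ± 0.14 (SE, limma adjusted p = 0.676), which was −0.01 without array 2 and −0.32 without array 4. The dimmer probe gave 0.13, 0.11, −0.07 and −0.07, a mean of 0.02 ± 0.11 (SD, n = 4). Neither was saturated in any liver (0 of 8).

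Axin2, which breaks down beta-catenin and is itself switched on by Wnt signalling, was too dim to test. Its better probe was well above background in 2 of 4 mutants, both female, and in 0 of 4 wild types. On a scale normalised over all probes it read 6.77 and 6.58 in wild-type females, 7.15 and 7.10 in mutant females, 6.77 and 6.49 in wild-type males and 6.52 and 6.61 in mutant males. When dim probes were kept, the ratio was 0.19 ± 0.14 (SE, limma adjusted p = 0.751). The other Axin2 probe was well above background in 0 of 8 livers.

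**Figure D1:**
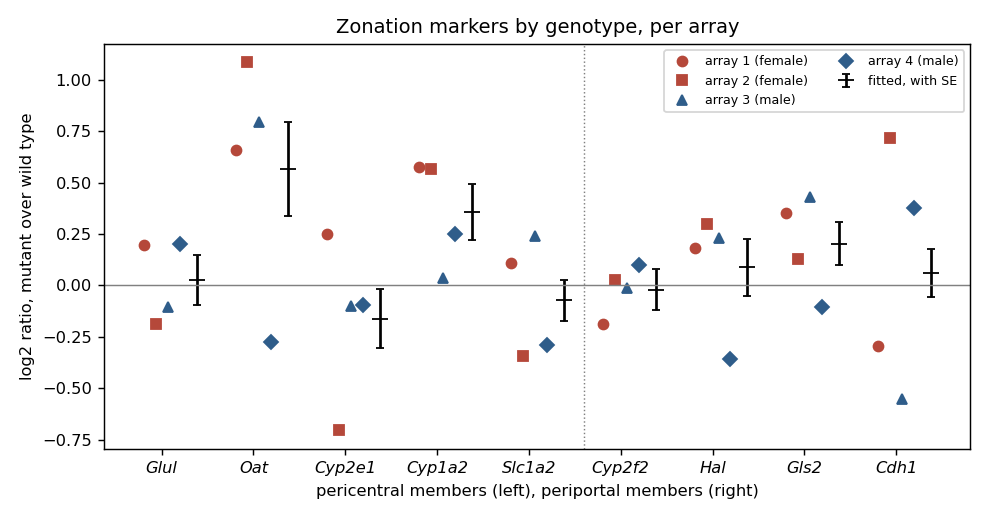
Log2 ratios of mutant over wild type for the 9 tested members, by array, with the fitted ratio and its SE in black. The 4 arrays of Oat lie between −0.28 and 1.09 and those of Cyp2f2 between −0.19 and 0.10, and Cyp1a2 alone has all 4 arrays above 0.

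Among the periportal members, Cyp2f2, a cytochrome known for oxidising naphthalene, varied least over the arrays. Its levels were 16.997 and 16.70 in wild-type females, 16.81 and 16.72 in mutant females, 17.06 and 17.12 in wild-type males and 17.05 and 17.22 in mutant males. The array ratios ran from −0.19 to 0.10 with a fit of −0.02 ± 0.10 (SE, 95% interval −0.27 to 0.23, limma adjusted p = 0.956).

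Hal and Gls2 release ammonia from amino acids on the portal side. Histidine ammonia-lyase (Hal) read 14.82 and 14.33 in wild-type females, 15.0004 and 14.63 in mutant females, 14.09 and 14.16 in wild-type males and 14.32 and 13.80 in mutant males. Its fitted ratio was 0.09 ± 0.14 (SE, limma adjusted p = 0.824). Liver glutaminase (Gls2) read 14.79 and 15.05 in wild-type females, 15.14 and 15.18 in mutant females, 14.28 and 14.22 in wild-type males and 14.71 and 14.11 in mutant males. For both genes the ratio was above 0 on arrays 1 to 3 and below 0 on array 4, the same pattern as Oat. The fitted ratio of Gls2 was 0.20 ± 0.10 (SE, limma adjusted p = 0.551).

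E-cadherin (Cdh1), the junction protein of portal hepatocytes that bile duct cells also make, had the largest dye effect of the members. Its probe, printed in 10 spots, read 10.06 and 8.92 in wild-type females, 9.77 and 9.64 in mutant females, 9.44 and 9.16 in wild-type males and 8.89 and 9.54 in mutant males. In every pair the liver labelled with Cy3 read higher than the one labelled with Cy5. The ratios were −0.29, 0.72, −0.55 and 0.38, with a dye term of −0.49, and the fit with that term was 0.06 ± 0.12 (SE, limma adjusted p = 0.858).

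Bile duct markers were examined because of Cdh1. Of 10 markers of cholangiocytes, 5 were tested, and Krt7, Epcam and Muc1 were among those well above background in no liver. The tested markers had a median ratio of −0.12, with 2 higher and 3 lower in mutants, and their mean level ran from 7.46 to 7.87 in wild types and from 7.33 to 7.66 in mutants. The chloride channel gene Cftr had a ratio of −0.62 ± 0.22 (SE), the junction gene Cldn7 −0.21 ± 0.12 (SE), the duct regulator Sox9 0.16 ± 0.14 (SE), the keratin gene Krt19 −0.12 ± 0.12 (SE) and the secreted protein gene Spp1 0.02 ± 0.17 (SE). Of the 12 other junction genes tested, 5 were higher and 7 lower, with a median of −0.03. Examples are the second hepatocyte cadherin Cdh2 (−0.32 ± 0.12 SE) and the claudin gene Cldn1 (0.48 ± 0.30 SE). None of these passed (0 of 5 and 0 of 12, limma adjusted p from 0.541 to 0.975 for those named). Without array 4, Cftr (−0.93) and Cldn1 (0.95) passed, whereas without array 2 they were at −0.31 and 0.0067, Cldn7 at −0.10 and Cdh2 at −0.20. Without array 1 Sox9 was at 0.0026, and without array 3 Krt19 was at −0.02.

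Set against each other, the pericentral and the periportal members differed by 0.06 in their mean ratio by genotype. The mean ratio of the 5 tested pericentral members minus that of the 4 periportal members was 0.34, −0.21, 0.15 and −0.05 on arrays 1 to 4, a mean of 0.06 ± 0.24 (SD, n = 4). It was positive on 2 arrays and negative on 2, once in each sex, and its sign followed the dye orientation. Dye was not taken out of these array values or their SD. Their signs therefore do not show whether a shift by genotype is steady. The pericentral mean ratio was 0.14 ± 0.17 (SD, n = 4) and the periportal 0.08 ± 0.14 (SD, n = 4). No p is given, since the members were chosen with earlier results in view.

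The same difference was formed for each liver, after setting every gene to its own mean over the 8 livers. It was −0.33 and 0.37 in the wild-type females, 0.02 and 0.16 in the mutant females, −0.02 and −0.14 in the wild-type males and 0.13 and −0.18 in the mutant males. The lowest and the highest livers were both wild-type females, so the mutant range of −0.18 to 0.16 lay inside the wild-type range. Wild-type female 1 had the highest Cdh1 of the 8 livers, while wild-type female 2 had high Cyp2e1 and Slc1a2 and the second lowest Cdh1. Female 1 was labelled with Cy3 and female 2 with Cy5, and levels of single livers were not corrected for the dye term of a gene. That term (Cy5 over Cy3) was −0.49 for Cdh1, 0.25 for Slc1a2 and 0.24 for Cyp2e1. The part of dye in the wild-type range was not tested. The means of the difference were −0.03 ± 0.29 (SD, n = 4) in wild types and 0.03 ± 0.15 (SD, n = 4) in mutants.

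**Figure D2:**
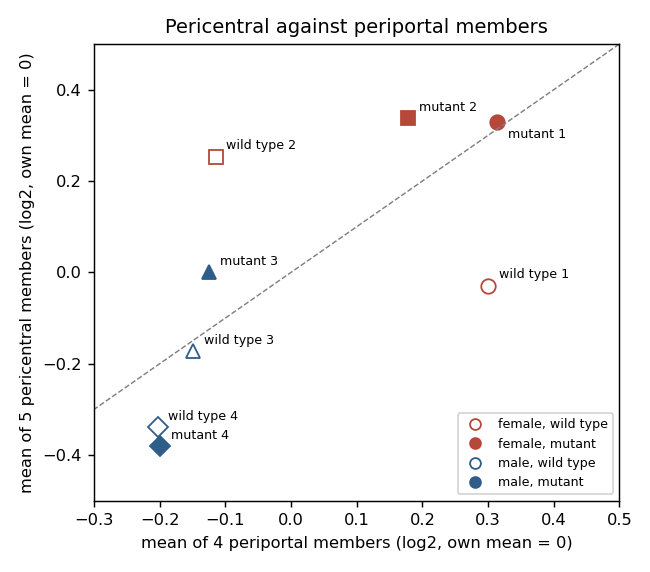
Mean of the 5 tested pericentral members against the mean of the 4 periportal members in each liver, in log2 units with each gene set to its own mean over the 8 livers, and a dashed line where both are equal. Open symbols are wild types, filled symbols mutants, and shapes mark the array. Wild-type females 1 and 2 lie farthest from the line, and all 4 males have periportal means between −0.20 and −0.12.

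Several members were lower in males without overlap, although no member passed the test of sex. Sexes were never on 1 array, so sex and array cannot be told apart, and the fit treats the 8 single channels with a within-array correlation of 0.793. Of 9 tested members, 8 read lower in males, Cyp2f2 being the exception, whereas 49.4% of all genes did. All 4 males lay below all 4 females for Oat, Cyp2e1, Hal and Gls2 (4 of 9 members, against 11.7% of all genes), and above them for Cyp2f2 (1 of 9, against 12.6%). The single-channel limma fit called 0 of 9 members at an adjusted p under 0.05 and 0.211% of all genes, and 1 of 9, Gls2, was lower in males at an unadjusted p under 0.05 (7.6% of all genes). In the other direction it was 0 of 9 (8.67% of all genes, and 16.3% in either direction).

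Gls2 read 15.04 ± 0.18 (SD, n = 4) in females and 14.33 ± 0.26 (SD, n = 4) in males, a difference of −0.71 ± 0.20 (SE), or 1.64-fold (limma adjusted p = 0.194). Oat differed by −1.21 ± 0.51 (SE), 2.31-fold, with 13.76 ± 0.57 (SD, n = 4) in females and 12.55 ± 0.39 (SD, n = 4) in males (limma adjusted p = 0.327). A fit of array means, 2 arrays against 2, called both, with a limma adjusted p of 0.0418 for Gls2 and 0.0235 for Oat, and it called 2010 genes in all against 37 in the single-channel fit. Hal differed by −0.60 ± 0.29 (SE), Cyp2e1 by −0.46 ± 0.33 (SE) and Cyp2f2 by 0.30 ± 0.15 (SE), and neither fit called them. Cdh1 (−0.34 ± 0.24 SE), Cyp1a2 (−0.24 ± 0.26 SE) and Glul (−0.14 ± 0.26 SE) overlapped between the sexes. So did Slc1a2 (−0.18 ± 0.17 SE), which was at 0.22 when its 3 probes were averaged.

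The means of both zones were lower in males. The pericentral members had a mean of 0.22 ± 0.17 (SD, n = 4) in females and −0.22 ± 0.17 (SD, n = 4) in males around each gene's own mean, and the periportal members 0.17 ± 0.20 and −0.17 ± 0.04 (SD, n = 4 each). Their difference was 0.05 ± 0.29 (SD, n = 4) in females and −0.05 ± 0.14 (SD, n = 4) in males. The ranges of −0.33 to 0.37 and −0.18 to 0.13 overlap.

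**Figure D3:**
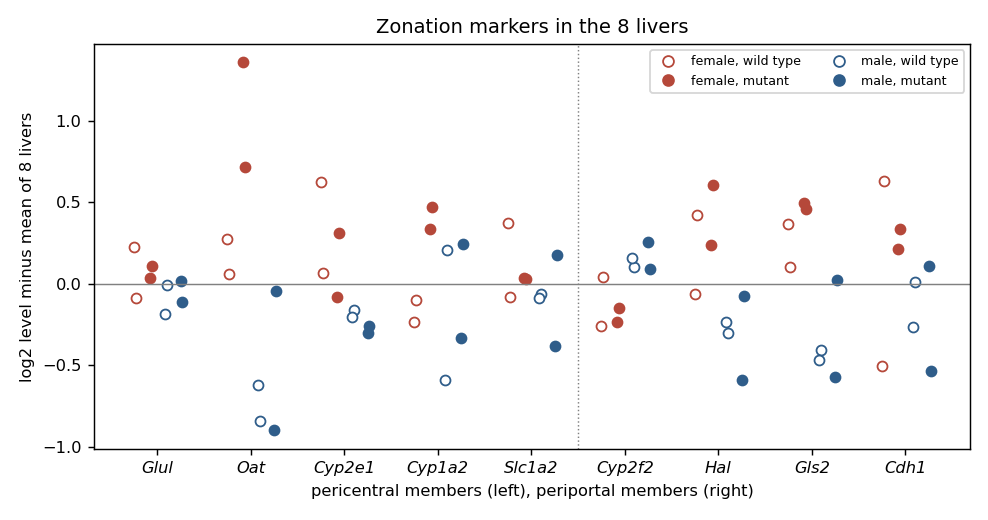
Level of each tested member in the 8 livers, as the log2 level minus the gene's mean over the 8 livers, females in red and males in blue, wild types open and mutants filled. Males lie below females without overlap for Oat, Cyp2e1, Hal and Gls2 and above them for Cyp2f2.

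Whether the genotype ratio differed between females and males was tested with a coefficient per sex, which leaves 1 residual degree of freedom. The limma fit called 0 of 9 members and 0% of all genes, and at an unadjusted p under 0.05 it found 0 of 9 and 5.85%. For Oat the ratio was 0.87 in females and 0.26 in males, a difference of 0.61 ± 0.41 (SE, limma adjusted p = 0.857). For Cyp1a2 it was 0.57 in females and 0.14 in males, a difference of 0.43 ± 0.21 (SE, limma adjusted p = 0.835).

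Further pericentral genes were read alongside. Of 21 such genes, 19 were tested, of which 13 were higher and 6 lower in mutants and 0 passed, with a median ratio of 0.06 (median of all genes −0.01) and array medians of −0.04, 0.22, 0.32 and −0.01. Lect2, a secreted hepatocyte protein, had a ratio of 0.34 ± 0.11 (SE) and Nr1i3, the xenobiotic receptor CAR, −0.43 ± 0.16 (SE), each with a limma adjusted p of 0.541. Nr1i3 was at −0.25 without array 2. By sex, 15 of the 19 were lower in males with a median of −0.44, and 0 passed. Males lay below females without overlap for 3 of 19 (11.7% of all genes) and above for 0 (12.6% of all genes). The cytochrome gene Cyp2c37 read 15.20 ± 0.11 (SD, n = 4) in females and 14.12 ± 0.11 (SD, n = 4) in males without overlap (limma adjusted p = 0.0994, and 0.0157 with array means).

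Genes that answer to Wnt signalling, including feedback inhibitors of the kind of Axin2, were read next. All 12 were tested, with 4 higher and 8 lower in mutants, 0 passing and a median of −0.08. Tbx3, a repressor that marks pericentral cells and lies on the chromosome of Pus1, had a ratio of −0.42 ± 0.13 (SE) and was below 0 on 4 of 4 arrays (limma adjusted p = 0.541). Znrf3, which removes Wnt receptors, was at −0.19 ± 0.12 (SE) and the factor Lef1 at 0.14 ± 0.11 (SE). Without array 2 Znrf3 was at −0.11, and without array 4 Lef1 was at 0.07. Lgr5, the R-spondin receptor of the cells at the central vein, read 8.54 ± 0.21 (SD, n = 4) in females and 7.82 ± 0.28 (SD, n = 4) in males without overlap (limma adjusted p = 0.122, and 0.0259 with array means). The inhibitor Nkd1 also lay lower in all 4 males, by −0.50 ± 0.21 (SE, limma adjusted p = 0.324). Of the 12, 8 read lower and 4 higher in males. Males lay below females without overlap for 3 of 12 (11.7% of all genes) and above for 0 (12.6% of all genes).

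Of 17 ligands, receptors and core parts of the Wnt pathway, 14 were tested, with 5 higher and 9 lower in mutants, 0 passing and a median of −0.07. The ligands Wnt2 and Wnt9b and the enhancer Rspo1 were too dim, being well above background in at most 3, 1 and 2 of 8 livers. The kinase gene Gsk3b, part of the complex that breaks down beta-catenin, had a ratio of −0.28 ± 0.11 (SE), the factor gene Tcf7l2 −0.35 ± 0.13 (SE) and the co-receptor gene Lrp6 −0.27 ± 0.14 (SE). Without array 2 Tcf7l2 was at −0.19 and Lrp6 at −0.10, and without array 4 Lrp6 was at −0.44. By sex, 6 of the 14 read lower and 8 higher in males. All 4 males lay below all 4 females for 2 of 14 (11.7% of all genes) and above them for 4 of 14 (12.6% of all genes). Ctnnb1, which encodes beta-catenin, read 11.17 ± 0.10 (SD, n = 4) in females and 10.39 ± 0.10 (SD, n = 4) in males (limma adjusted p = 0.111), whereas Tcf7l2 (0.93 ± 0.26 SE), Lrp6 (0.78 ± 0.27 SE) and Gsk3b (0.41 ± 0.14 SE) lay higher in all 4 males. None passed in the single-channel fit. Array means gave limma adjusted p of 0.0223 for Ctnnb1, 0.022 for Tcf7l2, 0.0318 for Lrp6 and 0.0802 for Gsk3b.

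Of 28 further periportal genes, all tested, 18 were higher and 10 lower in mutants and 0 passed, with a median of 0.24 and array medians of 0.01, 0.26, 0.38 and 0.06. The urea cycle enzyme Ass1 had a ratio of 0.39 ± 0.11 (SE). Hsd17b13, a lipid droplet enzyme whose gene shares a chromosome with Pus1, was at 0.51 ± 0.10 (SE). Pigr, the receptor that carries antibodies into bile, was at −1.11 ± 0.33 (SE), with −2.48 on array 2 and −1.03 to −0.47 on the others. The limma adjusted p was 0.541 for all 3. Pigr passed without array 4 (ratio −1.62, limma adjusted p = 0.00953) and was at −0.61 without array 2. In males 23 of the 28 were lower, with a median of −0.59, and 0 passed. Without overlap, males lay below females for 9 of 28 (11.7% of all genes) and above for 2 of 28 (12.6% of all genes). Igfals, which carries growth factor IGF in blood, lay lower in all 4 males by −0.98 ± 0.32 (SE, limma adjusted p = 0.248, and 0.0198 with array means).

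Genes that handle glutamate, glutamine and ammonia, the metabolites of Glul, Oat, Slc1a2, Hal and Gls2, had a median ratio of −0.07 over the 17 tested of 20, with 6 higher, 11 lower and 0 passing. Nags, which makes the activator of the urea cycle, was at 0.43 ± 0.13 (SE), the transaminase Gpt at 0.24 ± 0.11 (SE) and Ftcd, of histidine breakdown, at −0.32 ± 0.15 (SE). Nags passed without array 4, at 0.56. Ftcd was at −0.14 without array 2 and −0.49 without array 4. The amino acid transporter Slc38a2 read 11.25 ± 0.64 (SD, n = 4) in females and 9.88 ± 0.14 (SD, n = 4) in males without overlap (limma adjusted p = 0.31, and 0.00794 with array means). It was the only 1 of the 17 with all males below all females (11.7% of all genes), and 0 had all males above (12.6% of all genes).

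**Figure D4:**
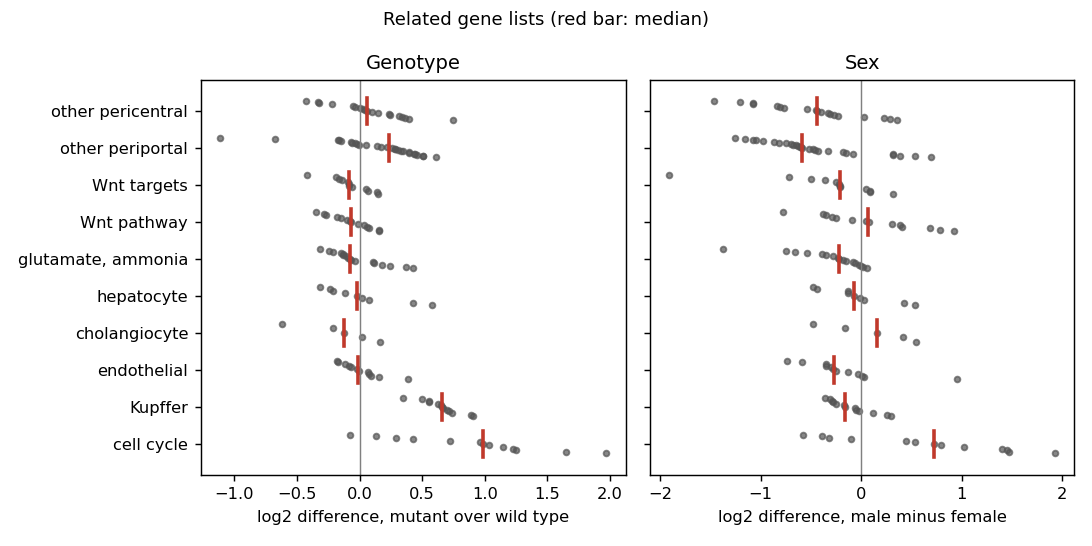
Log2 differences of the tested genes of 10 related lists by genotype (left) and by sex (right), 1 point per gene and the median as a red bar. The other periportal genes have medians of 0.24 by genotype and −0.59 by sex, and the Kupffer and cell cycle lists medians of 0.66 and 0.99 by genotype.

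Markers of other cells were read in the same livers. All 13 tested markers of Kupffer cells, the liver's macrophages, had a ratio above 0 on all 4 arrays, where 8.97% of all genes did. Their median was 0.66, with mean levels of 9.91 to 10.77 in wild types and 10.58 to 11.22 in mutants. All 13 were higher at an unadjusted limma p under 0.05, where 4.73% of all genes were, and 0 passed after adjustment. The list was chosen with earlier results of these data known. Examples are the scavenger receptor Marco (0.71 ± 0.11 SE), the lysozyme Lyz1 (0.89 ± 0.16 SE) and Timd4 (0.70 ± 0.14 SE), all 3 of which passed without array 4. Cell cycle genes had a median of 0.99 over 13 tested, with 12 higher and 0 passing, and mean levels of 7.78 to 8.33 in wild types and 8.50 to 9.80 in mutants. By sex 9 of the 13 were higher in males, with a median of 0.72 and 0 passing, and the mitosis gene Cdc20 was at 1.93 ± 0.90 (SE, limma adjusted p = 0.367, and 0.00383 with array means). The 12 tested endothelial markers, which include cells that send Wnt signals, had a median of −0.02 by genotype and −0.27 by sex. By sex, 9 of the 12 read lower and 3 higher in males. All 4 males lay below all 4 females for 2 of 12 (11.7% of all genes). Among these was Fcgr2b, at −0.58 ± 0.13 (SE, limma adjusted p = 0.146, and 0.0343 with array means). All 4 males lay above for 1 of 12 (12.6% of all genes), the receptor gene Kdr, at 0.96 ± 0.15 (SE, limma adjusted p = 0.102, and 0.0186 with array means). Of the hepatocyte markers 4 of 9 were higher in mutants, with a median of −0.02. The part of these cells in the values of the zonation genes was not tested.

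The tested genes most like Glul over the 8 livers, by the root mean square difference of levels set to each gene's own mean, were Cep350 (0.0474), Zfp260 (0.0505), Fam149b (0.0573), Fam167b (0.0578) and Atp5j (0.0595), in log2 units, against an SD of Glul itself of 0.13. Those most like Cyp2f2 were Armt1 (0.0401), Rpl34-ps1 (0.0623), Map2k5 (0.0639), Sim2 (0.0681) and Fes (0.0685), against an SD of 0.19. The points share array, dye and sex.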

How the data were processed

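Liver RNA of 4 mutant and 4 wild-type mice was measured on 4 2-colour Agilent arrays of 1 slide, labelled from 200 ng each, with groups and dyes read from the sample labels. Each array file holds, per the file headers, an intensity for each spot and channel, as median brightness and as processed signal, and marks of other kinds (0 or 1), made with Agilent Feature Extraction 10.7.3.1. The deposited series table holds log2 values whose scale looks centred on each probe; centring and steps stay unknown, and it served as an alternative only. A further 68 columns with values of single samples played no part.

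Median signals were corrected with normexp (offset 50) and loess in limma 3.58.1 (R 4.3.3, with the package data.table at version 1.17.8). Spots marked as outliers were dropped, the loess gave control spots a weight of 0, and replicate spots of each probe were averaged. Symbols came from RefSeq accessions (27656 of 55681 probes). Ratios were fitted with genotype and dye terms. Levels and the sex fit used Aquantile normalization, single channels and a within-spot correlation of 0.793. Both fits were run on simulated data to check that added differences were returned. The simulation for sex used the same noise for every gene and no Aquantile normalization. It therefore does not show how the sex fit performs on these arrays. The threshold was an adjusted p of 0.05, and the number of arrays limits precision. With 4 arrays, the smallest p of an exact sign-flip test is 0.125, so none was run. Figures used matplotlib 3.10.9 (Python 3.11.15).

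Same-numbered samples share an array by the labels, so the array is the block. Their deviations from the group means correlated at 0.684, 0.176, 0.554 and 0.644 across genes. The members, lists and rules were chosen with earlier results of these data known. Named genes were all members, from each other list up to 3 genes with the smallest genotype p and up to 2 with the smallest sex p, and the 5 genes most like Glul and Cyp2f2. Probe sequences were not used here, and a few genes that this rule names are not reported here.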

Additional observations from a re-analysis of the deposited data

Results flagged for a closer look

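In 3 of 114 sets of 4 livers, each a gene or the zonation difference within a genotype, 1 liver stood apart by Dixon's test, where chance flags about 5%. Among wild types, female 2 read 11.95 for Slc1a2 and the others 11.48 to 11.51, and female 1 read 7.63 for Spp1, a bile duct marker here, and the others 8.15 to 8.25. Among mutants, female 1 read 7.26 for Lef1 and the others 7.0 to 7.03.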

How the results depend on the processing

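The zonation difference of 0.06 stayed between 0.01 and 0.11 with single arrays left out. In every other alternative run it lay between 0.059 and 0.070, and the run without a filter (0.068) also counted Axin2. The spread over arrays was 0.24 (SD), with dye not taken out. Changes to the dye term or the replicate block, and a filter on all 8 livers, left the zonation difference the same. These runs could not move it, since dyes are balanced over the arrays and the probes used pass that filter. Calls by genotype (0) were 1 with an offset of 16, with median centring, without a filter and without a dye term, 3 with the array as a random replicate block and 2 with no replicate block, and ran from 0 to 1522 with arrays left out, the highest without array 4, where Oat, Pigr, Cftr, Cldn1, Nags, Lyz1, Marco, Timd4, Aurka, Birc5 and Cdc20 passed among the named genes. Calls by sex (37) were 6 when probes had to be well above background in all 8 livers, 1565 with the values of the series table, 2010 with array means and 3197 with no replicate block, and ran from 68 to 1184 with arrays left out (168, 1184, 92 and 68 without arrays 1 to 4, with the correlation of the full fit). By sex, Birc5, Ccnb2, Cdc20, Cldn1, Ctnnb1, Cyp2c37, Igfals, Kdr, Lrp6, Pigr, Slc38a2 and Tcf7l2 passed without array 2, Slc38a2 also without array 1 and Cdc20 without any single array, and no member passed with an array left out. No setting called a gene whose ratio differed by sex (0).

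Of 1568 values of single genes under alternatives, 1448 kept their direction and side of the threshold, 79 came to pass and 41 turned sign. The count of values lost was 0 by construction, since no named gene passed in the main fits. The cause of these moves was not tested. With median centring the genotype ratio was 0.102 for Cyp2f2, 0.0136 for Slc1a2, 0.0631 for Ctnnb1, 0.0729 for Cyp2c37 and 0.0516 for Fcgr2b. With the series table values it was 0.0188 for Cyp2f2 and 0.021 for Cyp2c37, and 0.0671 for Cyp2c37 with all probes averaged. Slc1a2 by sex was 0.225 with probes averaged. The ratio in females minus that in males was, with median centring, 0.0148 for Cyp2e1, 0.0265 for Cyp2f2, 0.0883 for Glul and 0.0112 for Slc1a2. It was, with the series table values, 0.0652 for Cyp2e1, 0.0872 for Cyp2f2 and 0.0615 for Glul, and 0.0300 for Cyp2e1 with probes averaged. With arrays left out the genotype ratio ran from −0.0229 to 0.148 for Cdh1, −0.0637 to 0.0243 for Cyp2f2, −0.0705 to 0.123 for Glul, −0.0751 to 0.253 for Hal, −0.0756 to 0.0497 for Ctnnb1, −0.117 to 0.0463 for Cyp2c37, −0.029 to 0.015 for Fcgr2b, −0.439 to 0.228 for Slc38a2 and −0.175 to 0.213 for Spp1. The sex difference ran from −0.58 to 0.108 for Cyp1a2, −0.0676 to 0.192 for Ftcd, −0.74 to 0.701 for Marco, −0.0561 to 0.0799 for Stab1, −0.121 to 0.747 for Tbx3 and −0.00765 to 0.178 for Znrf3.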
